A study of Hypomesus transpacificus with 70 samples.

Results

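The transcripts described here are gill transcripts of delta smelt (Hypomesus transpacificus) whose mean level at 12 ppt exceeded that of the handling control when the salinity ramp ended, and no longer clearly did so at the last sampling. They were chosen from the study's own list of 697 array probes, or 448 transcripts, with an effect of salinity or of salinity and time together. In the deposited log2 values, a probe had to be higher at 12 ppt than at 2.3 ppt by at least 0.8 at 0 h and by less than 0.4 at 42 h. Of the 94 probes past the first threshold, 85 also met the second, and 16 of these were set aside by gene symbol. The remaining 69 probes stand for 43 transcripts, 38 with a gene symbol and 5 known only by their number in the smelt transcriptome ("isotig").

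The study exposed prespawning adult delta smelt, held at 2.3 ppt beforehand, to 0.4, 2.3, 6, 12 or 18 ppt. Salinities were ramped over 6 h, and gills were taken when the targets were reached (0 h) and after 18 and 42 h, which the sample labels count as 6, 24 and 48 h from the start of the ramp. The labels also round 0.4 and 2.3 ppt to 0 and 2 ppt. Each of the 70 single-color arrays held the RNA of 1 fish. The 2.3 ppt handling control comprised 6 fish at each exposure time, the other salinities 4 fish at each time, with 3 at 12 ppt at 18 h, and the pre-experiment baseline 5 fish. Fish of a salinity and time other than the handling control shared 1 container, so container and treatment cannot be told apart. Gill is a mixed tissue, and more cells of a type cannot be told apart from more RNA per cell.

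Fish gills are both the main site of ion exchange and a barrier tissue with resident immune cells. Inflammatory cytokines and chemokines are made in bursts after a stimulus and are checked by inhibitors that they themselves induce. Protein synthesis and folding in the endoplasmic reticulum form a separate stress system, with its own chaperones and amino acid enzymes. Ion balance rests on ionocytes, whose Na-K-2Cl cotransporter takes up salt from the blood side during secretion in salt water. The set holds members of all of these: the cytokines and chemokines il1b, ccl19, isotig23598 (named CCL4), il12ba (a chain of interleukin-12) and m17 (a fish cytokine of the interleukin-6 family), the cytokine signal inhibitor socs1a, the transcription factors cebpb, junba and IER2, the chaperone hsp90b1, and the cotransporter slc12a2.

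Transcripts on which the results turn are shown by the array oligonucleotides that measured them, each of 60 bases and written 5′ to 3′. The irg1l pair covers the transcript with the largest early difference. It encodes a relative of immune-responsive gene 1, which in mammals makes itaconate in activated macrophages. These oligonucleotides share no stretch and are separate readings of 1 transcript:
irg1l, probe 21423: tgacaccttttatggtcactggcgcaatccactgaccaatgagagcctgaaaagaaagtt
irg1l, probe 21424: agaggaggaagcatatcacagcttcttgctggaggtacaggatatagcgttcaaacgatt
The il1b probes show how far replicate probes are repeats of a reading. Capitals mark the bases that an oligonucleotide shares with another of the same transcript. Probes 7023 and 7025 are the same sequence on separate spots, and probe 7026 overlaps them by 20 bases:
il1b, probe 7023: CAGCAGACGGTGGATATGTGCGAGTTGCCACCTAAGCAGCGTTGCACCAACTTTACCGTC
il1b, probe 7026: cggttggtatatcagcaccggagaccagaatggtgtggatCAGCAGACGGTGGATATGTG
The slc12a2 probes, which share 49 bases, read the transcript that moved against most of the others:
slc12a2, probe 20645: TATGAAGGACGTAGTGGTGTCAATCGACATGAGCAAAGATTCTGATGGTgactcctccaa
slc12a2, probe 20646: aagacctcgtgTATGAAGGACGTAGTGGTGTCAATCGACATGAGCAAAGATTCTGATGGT
For si:ch73-340m8.2, named as a Src42A-like tyrosine kinase, probes 31976 and 31977 share 59 bases and probe 22426 lies on another assembled sequence with the same name:
si:ch73-340m8.2, probe 22426: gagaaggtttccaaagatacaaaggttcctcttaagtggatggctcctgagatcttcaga
si:ch73-340m8.2, probe 31976: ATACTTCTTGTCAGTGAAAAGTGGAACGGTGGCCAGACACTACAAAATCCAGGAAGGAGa

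Replicate probes of a transcript mostly gave the same reading. The 24 transcripts on 2 or more member probes formed 28 probe pairs. Of these, 13 shared 59 or 60 bases, and their values over the 70 fish correlated at 0.971 to 0.998. The 2 identical il1b spots differed with an SD of 0.12 on the log2 scale. The 8 pairs that shared fewer than 10 bases correlated at 0.769 to 0.992, with irg1l at 0.979, zgc:174917 at 0.992 and hsp90b1 lowest at 0.769. For hsp90b1, 5 further probes of the study's list fell outside the thresholds, with early differences of -0.40 to 0.79. The second asns probe was likewise outside, at -0.13 early and 0.62 late, so that the asns values below rest on 1 probe. Of slc12a2, 2 further probes on another assembled sequence had early differences of 0.76 and 0.42. Member oligonucleotides had a median GC content of 45%, as had the other oligonucleotides of the list. Nearest to the early threshold were si:dkeyp-72h1.1, isotig16420 and isotig27507, each at 0.80 inside, with hsp90b1 (probe 28144) and tpm4a at 0.79 outside. Nearest to the late one were il1b (probe 7026) and cul3a at 0.37 inside, with pprc1, a further il1b probe and ftsj at 0.41 outside.

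All levels below are log2 fluorescence intensities after quantile normalization over the arrays, and differences are differences of these log2 values. Probes had to reach a signal of 100 on at least 50% of the arrays, and 56 member probes of 35 transcripts did so. A transcript's value in a fish is the mean of these probes; for irg1l, hsp90b1, abcf2a, asb16 and si:dkey-31e10.5 it rests on 1 probe, since the other of their 2 member probes did not pass. The 8 transcripts that did not pass were bcl3, tmem176, slc38a2, gpr84, TNIP2, nadka, isotig27507 and si:dkeyp-72h1.1. No member spot was saturated. Array medians ranged from 12.9 to 131, and 62% to 90.8% of an array's probes lay well above background. Of the cell type markers sought, all 6 for ionocytes and all 8 for gill epithelium passed the filter, and 6 of 11 for leukocytes, of which irg1l and nox1 are themselves in the set. Markers were sought only within the study's list of 697 probes, not over the whole array. The leukocyte markers ptprc, coro1a, mpx and lyz were not named in that list, nor were any markers of erythrocytes or muscle.

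The early difference that chose the transcripts was largest for irg1l, at 3.37 and 2.95 on its 2 probes. It was 2.37 to 2.68 for isotig02198, 2.41 to 2.51 for wu:fj08f03, 2.26 and above for both ccl19 probes and 2.09 to 2.23 for si:dkey-31e10.5, a poliovirus receptor-related protein. Differences near 2 followed for sb:cb252, il1b and isotig23598. At 42 h the 12 ppt fish were below the control on 50 of the 69 probes, by up to 2.17 for zgc:174917. These values made the selection and are given as a description only.

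Averaged over the 35 transcripts and centered on all fish, the level was lowest in the pre-experiment fish at -1.16 ± 0.16 (SD, n = 5). When the ramp ended, the handling control had reached -0.91 ± 0.15 (n = 6) and the 6 ppt fish -0.77 ± 0.16 (n = 4). The 18 ppt fish stood higher at -0.24 ± 0.41, the 0.4 ppt fish at -0.13 ± 0.54, and the 12 ppt fish highest at 0.58 ± 0.50 (n = 4 each). After 42 h the handling control was at 0.60 ± 0.43 and the 12 ppt fish were at 0.06 ± 0.31. The 0.4 ppt fish then stood at 0.86 ± 0.21, the 18 ppt fish at 0.57 ± 0.31 and the 6 ppt fish at 0.19 ± 0.28. The narrowing of the gap between 12 and 2.3 ppt was fixed by the thresholds. In these fish, as a description, the median change from 0 to 42 h was 1.30 in the control and -0.53 at 12 ppt, where 11 of the 35 transcripts were higher at 42 h and the others lower. At 18 h the mean at 12 ppt was 0.62 ± 0.14 (n = 3), and at 42 h it was still above that of the pre-experiment fish.

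**Figure D1:**
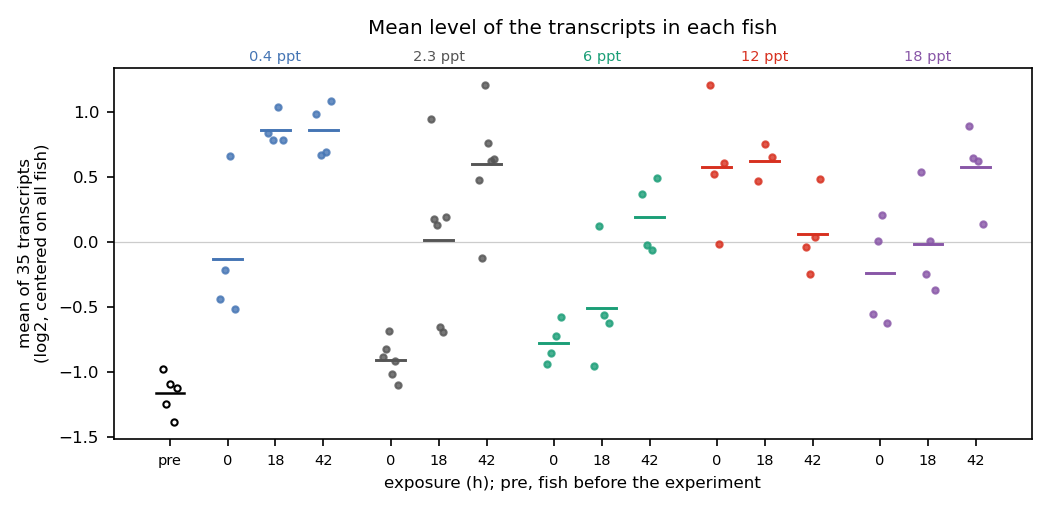
Mean of the 35 transcripts in each fish (points; y axis, log2 intensity centered on all fish) by salinity and exposure time (x axis), with horizontal bars for group means. The pre-experiment fish lie lowest at a mean of -1.16, 12 ppt is already at 0.58 at 0 h, and the 0.4 ppt fish reach 0.86 at 18 and 42 h.

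For 14 transcripts the highest of the 16 group means was that of 0.4 ppt at 42 h, and for 6 that of 0.4 ppt at 18 h. Only 6 were highest at 12 ppt at 0 h, namely ccl19, cul3a, IER2, junba, ptprsa and SH2D7, and 4 at 12 ppt at 18 h, namely ctsl.1, hsp90b1, il12ba and isotig30094. The lowest mean was that of the pre-experiment fish for 21 transcripts and that of 6 ppt at 0 h for 5. These ranks are descriptive, and neighboring groups often differed by less than the spread between fish.

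**Figure D2:**
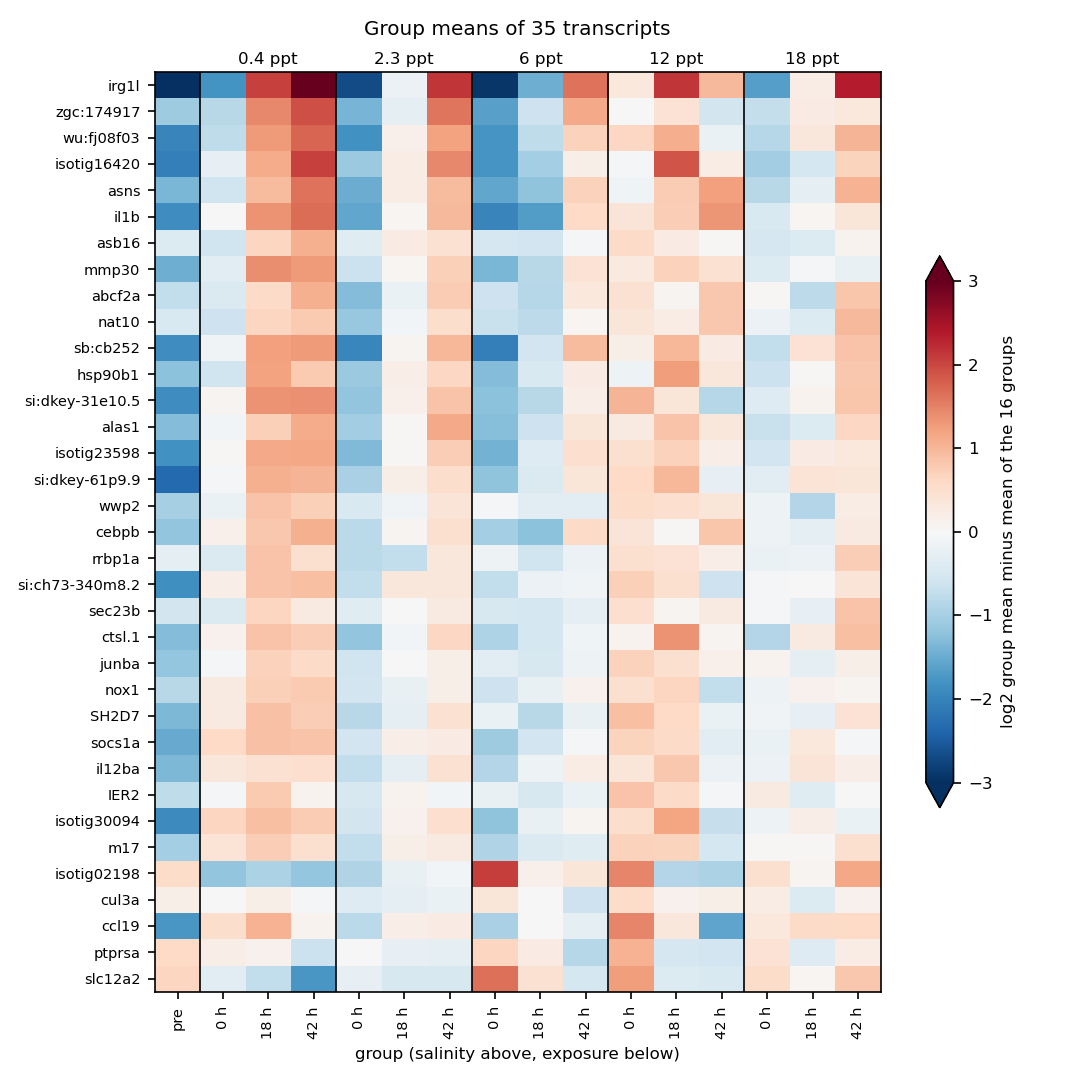
Group means of 35 transcripts (rows, ordered by their change from 0 to 42 h at 0.4 ppt) in the 16 groups (columns, salinity above and exposure below), as the difference from the mean of the groups on the log2 scale. Colors end at 3 units on either side, which irg1l reaches in the darkest cells. Most rows are lowest before the experiment, with isotig02198, ptprsa and slc12a2 the clearest exceptions.

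irg1l ranged from 2.09 in a pre-experiment fish to 12.13 at 0.4 ppt and 42 h. The 5 pre-experiment fish had levels of 2.09, 4.16, 4.26, 4.08 and 4.26. At 12 ppt the fish had 9.28, 9.80, 6.79 and 7.85 at 0 h, 10.48, 10.33 and 9.98 at 18 h, and 9.45, 7.24, 8.83 and 10.90 at 42 h. In the handling control the levels ran from 4.16 to 6.39 at 0 h (median 5.57), from 5.20 to 10.81 at 18 h (median 8.37) and from 7.73 to 11.59 at 42 h (median 10.63). The control fish had a higher median than the 12 ppt fish at 42 h, and all 12 ppt fish stayed above the pre-experiment fish. One array each of the pre-experiment fish, of the handling control at 0 h and of 18 ppt at 0 h was not well above background for irg1l.

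**Figure D3:**
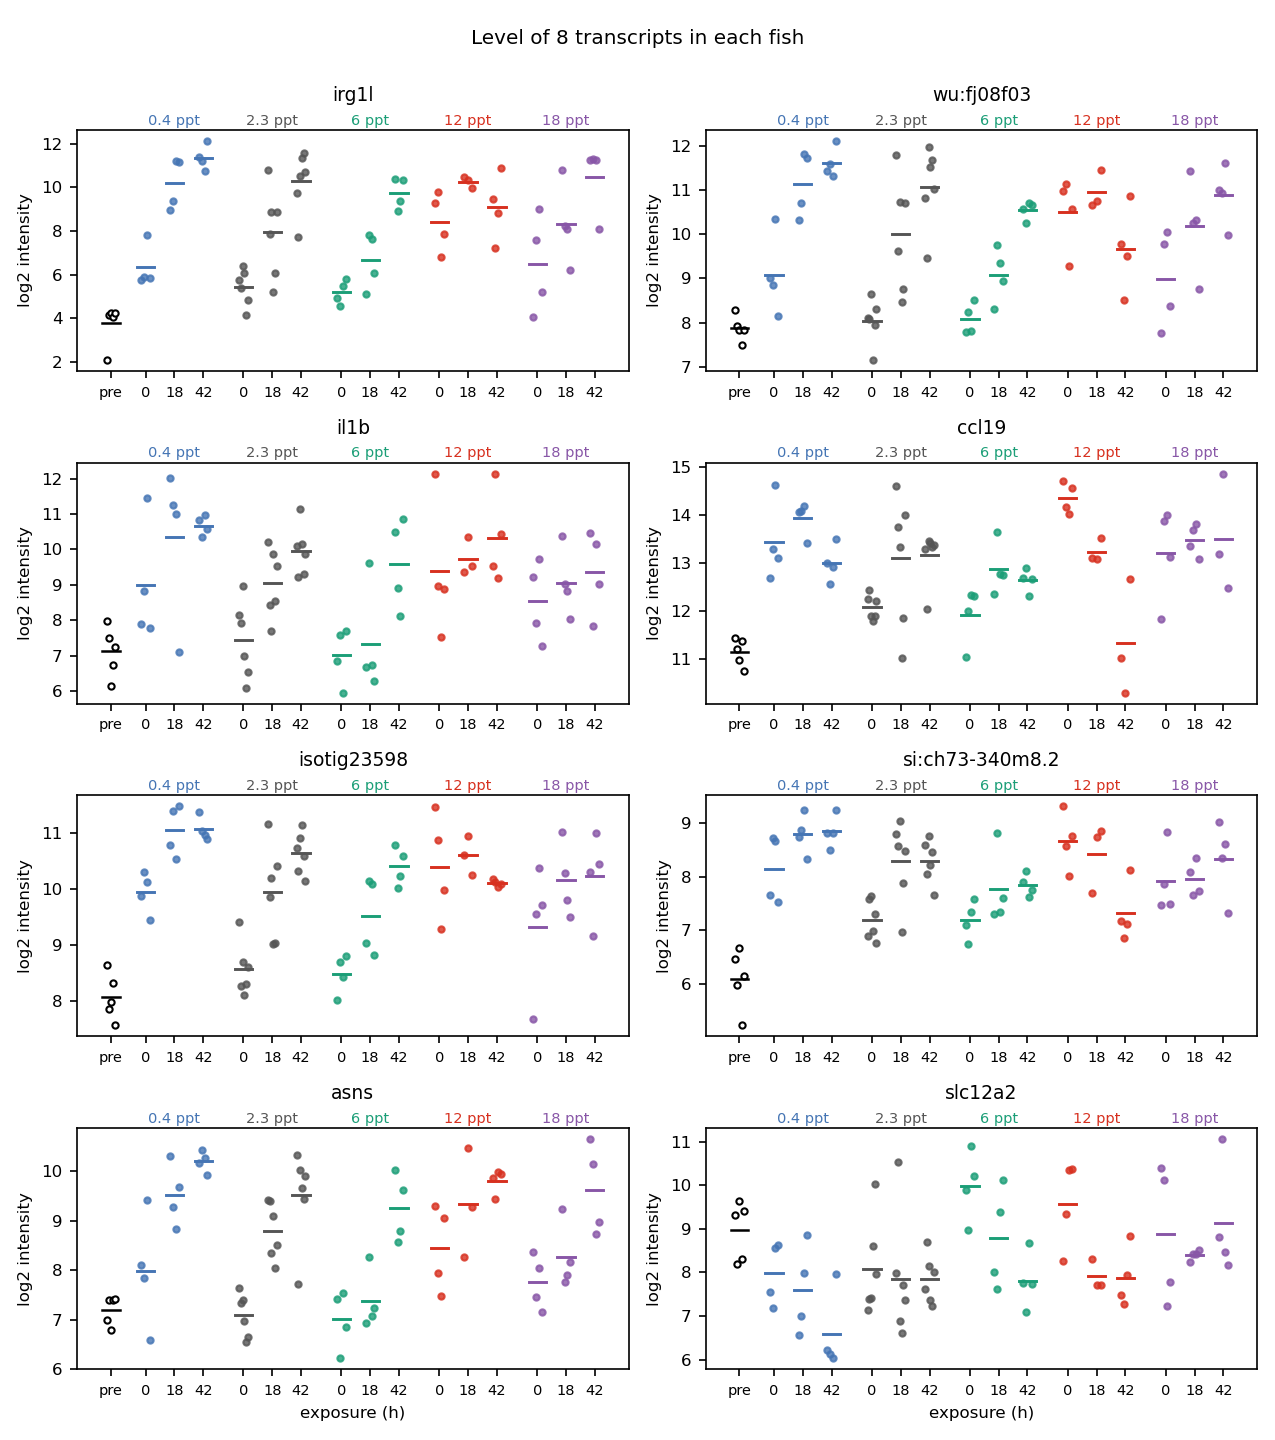
Level of 8 transcripts in each fish (points; y axes, log2 intensity) by salinity and exposure time (x axes, h), with bars for group means. irg1l, wu:fj08f03, il1b, isotig23598 and asns climbed with exposure at most salinities, ccl19 and si:ch73-340m8.2 were raised from 0 h, and slc12a2 was lowest at 0.4 ppt at 42 h.

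Tests of the members were confined to fish that had not entered the thresholds, in a limma model over all 70 arrays with Benjamini-Hochberg adjustment over about 14400 rows. The list from which the transcripts come had itself been chosen by the study on these fish for salinity, so counts between salinities are not independent evidence. The 3 comparisons with the pre-experiment fish share those fish, and each comparison of 42 with 0 h shares its 0 h fish with one of them. Counts at an unadjusted p under 0.05 are given for the transcripts alone. The share of all rows at that level was not counted, so these counts are descriptive.

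The salinities of the selection were compared at the exposure time it did not use. At 18 h, 31 of the 35 transcripts were higher at 12 than at 2.3 ppt, with a median difference of 0.62, against 0.02 over all rows. None passed an adjusted p of 0.05 in limma, where 0.00694% of all rows were called higher, and 10 had an unadjusted p under 0.05. irg1l differed by 2.31 ± 0.93 (SE; adjusted p = 0.693). ctsl.1, the lysosomal protease cathepsin L, had levels of 11.40, 10.55 and 9.57 at 12 ppt against 8.19 to 10.03 (median 9.18) in the control, a difference of 1.41 ± 0.41 (adjusted p = 0.382). All 3 fish at 12 ppt were scanned at the higher of the 2 photomultiplier settings (610), and against the 2 control fish of that setting the median difference was 0.13, and within the first scan day it was 0.41. The higher level at 18 h was not particular to 12 ppt. At 0.4 ppt, 33 of the 35 were above the control, with a median difference of 0.78 and none called. At 18 ppt 17 were above it (median -0.05), and at 6 ppt 7 (median -0.59).

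Between the salinity extremes at 0 h, 18 and 0.4 ppt, no transcript passed in limma, where 0% of all rows were called higher, and 2 had an unadjusted p under 0.05. The median difference was -0.22, with -0.50 within the first scan day and 0.30 within the second. ctsl.1 differed by -1.02 ± 0.41 and socs1a by -0.78 ± 0.38, both with an adjusted p of 0.638. isotig02198 was 1.67 ± 0.84 higher at 18 ppt (adjusted p = 0.638).

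Against the pre-experiment fish, part of the set was higher at 0.4 ppt when the ramp ended. Handling and time differ in this comparison as well as salinity. The handling control at 0 h had a median difference of 0.28 from the pre-experiment fish, as a description. Its fish were the low reference of the selection, which favored a small difference here. Between 0.4 and 2.3 ppt at 0 h the members' median difference was 0.90, as a description that the same reference fish favored. Over the whole array, none of 14403 rows was called there. At 0.4 ppt and 0 h, 8 of the 35 transcripts were higher than before the experiment and none lower, where 0.271% of all rows were called higher. The median difference was 1.21, against 0.03 over all rows. Among the 519 other probes of the study's list, 18 were called higher and 0 lower, with a median difference of 0.16. Other probes are all those outside the set that passed the filter. They include further probes of member transcripts and probes set aside by symbol. The 8 were isotig30094 (named PLEKHF1, a protein of endosomes and lysosomes in mammals), si:dkey-61p9.9 (named as an NLRP-like protein, a family that holds sensors of danger signals), ccl19, socs1a, si:ch73-340m8.2, isotig23598, il12ba and SH2D7. They include 2 of the 5 members on the cytokine list, ccl19 and il12ba, and none of the 3 on the list of immediate early and stress regulators (cebpb, IER2 and junba). Of the 10 other probes on the cytokine list, 5 were also called higher, so calls on this list were not limited to the member probes. Those 10 include a further il1b probe that missed the late threshold at 0.41, so they are not a separate group of genes. In each of the 8 the lowest of the 4 fish at 0.4 ppt lay above the highest of the 5 pre-experiment fish. These 8 had been called on the same fish, and the share of all rows without overlap was not counted.

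isotig30094 had levels of 12.51, 12.89, 13.42 and 12.62 at 0.4 ppt and 0 h, against 9.96, 10.99, 10.37, 10.14 and 9.97 before the experiment. All 0.4 ppt fish were above every pre-experiment fish, as were the handling control fish at 0 h, at 11.02 to 12.03. The difference was 2.57 ± 0.44, or 5.95-fold (adjusted p = 0.000551).

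si:dkey-61p9.9 rose from 8.24, 8.82, 8.10, 7.80 and 8.26 to 10.46, 10.89, 10.80 and 10.01. The groups did not overlap, at a 4.92-fold higher level (adjusted p = 0.00339). ccl19, a chemokine that in mammals guides lymphocytes and dendritic cells, went from 11.45, 11.21, 10.97, 11.38 and 10.76 to 12.70, 13.29, 14.62 and 13.09, with one fish well above the other three. Its difference was 2.27 ± 0.47 (adjusted p = 0.0111). socs1a, which blocks cytokine signaling through the JAK kinases, stood at 7.63 to 8.35 before and at 9.64, 10.46, 10.36 and 9.72 after the ramp, a difference of 2.11 ± 0.36 (adjusted p = 0.000551). In the handling control at 0 h the levels were 8.59 to 10.17 for si:dkey-61p9.9, 11.79 to 12.43 for ccl19 and 8.41 to 9.32 for socs1a. For ccl19 and socs1a these control fish too lay above all pre-experiment fish.

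si:ch73-340m8.2 had levels of 6.47, 5.98, 6.66, 5.22 and 6.15 before the experiment, of 7.65, 8.73, 8.67 and 7.52 at 0.4 ppt, of 7.48, 7.86, 8.83 and 7.49 at 18 ppt, and of 7.10, 6.74, 7.34 and 7.59 at 6 ppt. Every fish of these 3 salinities at the end of the ramp was above every fish from before it. So was every handling control fish at 0 h, at 6.76 to 7.64, where salinity was not changed. The difference was 2.04 ± 0.35 for the freshest water (adjusted p = 0.000602), 1.82 ± 0.35 for 18 ppt (adjusted p = 0.00937) and 2.14-fold for 6 ppt (adjusted p = 0.976). isotig23598 differed by 1.86 ± 0.39, il12ba by 1.68 ± 0.36 and SH2D7 by 1.62 ± 0.37 at 0.4 ppt, with adjusted p values of 0.0154 to 0.0291.

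Inflammatory transcripts with a wide spread between fish did not pass. il1b had levels of 7.90, 8.84, 11.45 and 7.78 at 0.4 ppt and 0 h against 6.13 to 7.99 before the experiment (1.87 ± 0.80, adjusted p = 0.308). For irg1l the corresponding values were 5.76, 5.90, 7.83 and 5.83, all above the pre-experiment fish, and the difference was 2.56 ± 0.89 (adjusted p = 0.235). Outside the cytokines, slc12a2 (-0.99 ± 0.64), ptprsa (-0.39 ± 0.29) and isotig02198 (-1.73 ± 0.80) had lower means than before the experiment, none past the threshold. Mean levels were also lower for asb16 (6.12 against 6.29), cul3a (7.16 against 7.32), nat10 (8.93 against 9.09) and rrbp1a (7.18 against 7.34). The other 28 of the 35 had higher means. Without replicate 3 of the 0.4 ppt fish the count of 8 became 5.

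At 18 ppt and 0 h, si:ch73-340m8.2 alone was called, 1 of 35 where 0.0347% of all rows were called higher. Of the 519 other probes of the study's list, 4 were called higher, all on the cytokine list. The members' median difference was 1.03, and 18 of them had an unadjusted p under 0.05. Without the first of the 18 ppt fish, whose levels of irg1l, ccl19, isotig23598 and il12ba were the lowest of the 4, 5 passed. Without replicate 2 or replicate 3 of them, without pre-experiment fish B4, or with the slide as a block, the count was 0. Within the photomultiplier settings 580 and 610 the median difference was 0.90 and 1.27 at 18 ppt, and 1.07 and 1.59 at 0.4 ppt. At 6 ppt and 0 h none passed in limma, where 0% of all rows were called higher, and 5 had an unadjusted p under 0.05. The median difference at 6 ppt was 0.21, with 0.26 and 0.48 within the settings.

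More transcripts were called between 0 and 42 h. At 0.4 ppt, 9 of 35 rose and none fell, where 3.75% of all rows were called higher, with a median change of 0.91. At 6 ppt 15 rose and 3 fell, where 12.8% were called higher and 10.1% lower, with a median change of 0.95. At 18 ppt 5 rose and none fell, where 0.833% were called higher, with a median change of 0.68. Over all rows the medians were -0.01, 0.05 and -0.01. Among the 519 other probes of the study's list, 115, 128 and 40 were called higher and 43, 48 and 18 lower at these salinities, so late increases were frequent across that list as well. In the handling control, 181 of these probes were called higher and 62 lower between 0 and 42 h. The members' median change there was 1.30, as a description, since the control fish entered the selection. Within the photomultiplier settings 580 and 610 the members' median change was 1.03 and 1.11 at 0.4 ppt, 1.08 and 0.85 at 6 ppt, and 1.09 and 0.29 at 18 ppt, where 3 of the 4 fish of 42 h but 1 of those of 0 h had the higher setting.

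**Figure D4:**
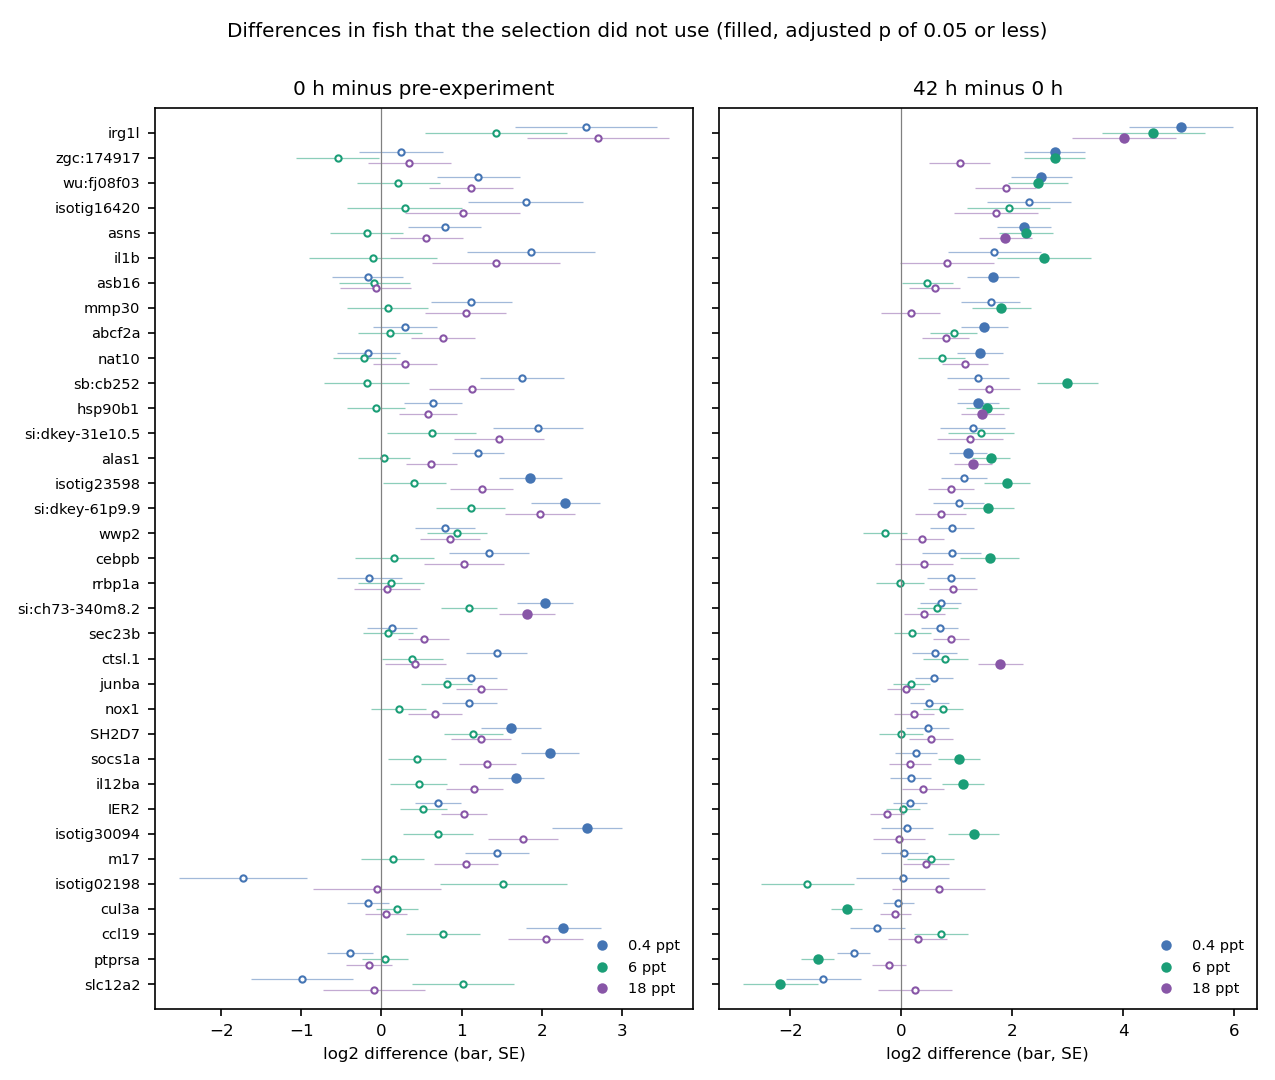
Log2 differences (points, with bars for the SE) of the 35 transcripts between 0 h and the pre-experiment fish (left) and between 42 and 0 h (right) at 0.4, 6 and 18 ppt. Filled points passed an adjusted p of 0.05: 8, 0 and 1 on the left, and 9, 18 and 5 on the right, with irg1l changing by 5.03, 4.54 and 4.01 from 0 to 42 h.

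irg1l rose at all 3 salinities. At 0.4 ppt its level went from 5.76, 5.90, 7.83 and 5.83 to 11.40, 11.21, 10.73 and 12.13, a change of 5.03 ± 0.93 or 32.8-fold (adjusted p = 0.000524). At 6 ppt it went from 4.93, 4.59, 5.46 and 5.82 to 10.37, 8.91, 9.36 and 10.34 (4.54 ± 0.93, adjusted p = 0.00146). At 18 ppt it went from 4.08, 7.59, 9.02 and 5.22 to 11.26, 11.31, 11.25 and 8.11 (4.01 ± 0.93, adjusted p = 0.0181), and there alone the times overlapped. These changes rest on 1 probe and on low levels at 0 h, where 3 of the 4 fish at 18 ppt were well above background. The filter took all arrays together, so a transcript could pass it through its later groups.

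The uncharacterized transcript wu:fj08f03 followed irg1l most closely, with a correlation of the 16 group means of 0.970, as a description over groups that share the same arrays. It changed from levels between 8.15 and 10.34 to 11.42, 11.59, 11.32 and 12.10 at 0.4 ppt (2.52 ± 0.55, adjusted p = 0.00269), and from 7.79, 8.24, 7.81 and 8.51 to 10.57, 10.25, 10.71 and 10.67 at 6 ppt (2.46 ± 0.55, adjusted p = 0.00248). Within each of these salinities, all 42 h fish were above all 0 h fish. At 18 ppt the change was 1.89 ± 0.55 (adjusted p = 0.0604). Levels in the handling control ran from 7.16 to 8.64 at 0 h and from 9.46 to 11.97 at 42 h. The next closest to irg1l were alas1 at 0.952, sb:cb252 at 0.949, hsp90b1 at 0.947 and asns at 0.945.

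zgc:174917, named for an alpha-ketoglutarate-dependent dioxygenase, had levels of 8.18, 8.49, 8.46 and 7.37 at 0 h and of 10.79, 10.93, 10.55 and 11.30 at 42 h in 0.4 ppt. In 6 ppt its levels were 6.93, 7.09, 7.65 and 7.65, and then 10.40, 9.85, 9.26 and 10.88. The change was 2.77 ± 0.55 in both, or 6.80-fold, with adjusted p values of 0.00112 and 0.00107. In 18 ppt it was 1.05 ± 0.55 (adjusted p = 0.360). The handling control had levels of 6.96 to 7.93 at 0 h and of 8.59 to 12.02 at 42 h. The change at 18 ppt minus that at 0.4 ppt was -1.71 ± 0.78, as was that minus the change at 6 ppt, and neither passed (adjusted p = 0.978 and 0.213).

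Among the transcripts of protein synthesis and folding, asns and hsp90b1 rose at all 3 tested salinities and had not been called at 0 h. Their mean levels also went from 7.09 to 9.51 and from 7.36 to 9.10 in the handling control, as a description of fish used for the selection. asns, which makes asparagine, had levels of 8.10, 7.84, 9.43 and 6.59 at 0 h and of 10.17, 10.43, 10.27 and 9.92 at 42 h in 0.4 ppt, without overlap (2.21 ± 0.48, adjusted p = 0.00271). At 6 ppt it went from 7.42, 6.22, 7.53 and 6.86 to 10.03, 8.57, 8.80 and 9.61 (2.25 ± 0.48, adjusted p = 0.002), and at 18 ppt from 8.36, 7.46, 8.03 and 7.16 to 10.65, 10.14, 8.74 and 8.98 (1.87 ± 0.48, adjusted p = 0.0302). All 42 h fish exceeded all 0 h fish in each. hsp90b1, the endoplasmic reticulum chaperone GRP94, rose by 1.38, 1.55 and 1.46 at 0.4, 6 and 18 ppt (adjusted p = 0.0185, 0.00525 and 0.0347), on the 1 probe that passed of a pair that correlated at 0.769.

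alas1, the first enzyme of heme synthesis, rose by 1.21, 1.62 and 1.29 (adjusted p = 0.0213, 0.0017 and 0.0369). In the handling control its mean level went from 11.78 to 13.94, again in fish of the selection. nat10, an RNA acetyltransferase of the nucleolus, rose by 1.42 at 0.4 ppt (adjusted p = 0.0278), with 0.73 at 6 ppt and 1.15 at 18 ppt not past the threshold. abcf2a (2.82-fold) and asb16 (1.65 on the log2 scale) were called at 0.4 ppt alone (adjusted p = 0.0208 each). Between 0 and 42 h, mean levels in the handling control went from 8.41 to 10.07 for nat10 and from 7.85 to 9.91 for abcf2a. For asb16 they went from 6.34 to 7.16, likewise in fish of the selection. ctsl.1 was called at 18 ppt alone, where its level went from 7.47, 8.52, 8.94 and 8.22 to 11.01, 8.95, 10.29 and 10.05 (1.79 ± 0.41, adjusted p = 0.016). Its change at 18 ppt exceeded that at 0.4 ppt by 1.18 ± 0.57, which did not pass (adjusted p = 0.978). The mean level of ctsl.1 in the handling control went from 7.98 to 9.79, in fish of the selection, whose thresholds favored such a rise. A call at 1 salinity alone does not show a difference between salinities.

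Other probes of the same functional lists were also called higher late. Of the endoplasmic reticulum list of 21 genes, hsp90b1 was called at each salinity while rrbp1a, a ribosome receptor of that membrane, and sec23b, a coat protein of secretory vesicles, were not called. The list's 30 other probes, which include the 5 further hsp90b1 probes, had 17, 11 and 5 called higher at 0.4, 6 and 18 ppt and none lower. Of the 16 other probes for tRNA charging and amino acid supply, 11, 12 and 2 were called higher, and of the 34 for ribosome biogenesis 23, 22 and 11, with none lower in either list. The 16 include the second asns probe.

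At 6 ppt, where no inflammatory transcript had been called at 0 h, several rose between 0 and 42 h. sb:cb252, named as a mitochondrial ES1 homolog, went from 10.96, 11.88, 9.70 and 11.69 to 13.92, 14.14, 13.65 and 14.50, a change of 2.99 ± 0.56 or 7.97-fold (adjusted p = 0.000657). il1b went from 6.84, 7.58, 5.96 and 7.69 to 10.49, 8.90, 8.11 and 10.86 (2.57 ± 0.84, adjusted p = 0.0253). In both, no fish at 42 h was as low as any fish at 0 h. At 0.4 and 18 ppt, il1b changed by 1.68 and 0.82 and sb:cb252 by 1.39 and 1.57, none past the threshold. In the handling control, where salinity was not changed, the mean level of il1b went from 7.44 to 9.96 over this interval. Of the 35 transcripts, 33 were higher there at 42 h, as a description of fish used for the selection. The thresholds favored transcripts that were low in these control fish at 0 h and high at 42 h.

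isotig23598 went from 8.02, 8.70, 8.44 and 8.81 to 10.79, 10.02, 10.23 and 10.59 at 6 ppt, again without overlap (1.91 ± 0.42, adjusted p = 0.0022). Smaller increases were called for si:dkey-61p9.9 (1.57), isotig30094 (1.31), il12ba (1.11) and socs1a (1.04), for cebpb, a transcription factor of acute inflammation (1.59), and for mmp30, listed with the matrix proteases (1.81), with adjusted p values of 0.0144 to 0.0402. Mean levels in the handling control went from 8.58 to 10.64 for isotig23598 and from 7.39 to 8.59 for il12ba. For cebpb they went from 8.28 to 9.59. isotig23598, si:dkey-61p9.9, isotig30094, il12ba and socs1a had already been called higher at 0 h in 0.4 ppt, and there their changes to 42 h ranged from 0.11 to 1.13 and none passed. The differences in change between 0.4 and 6 ppt were tested for all 35 transcripts and none passed in limma, with 3 at an unadjusted p under 0.05.

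ccl19 was not called in this interval. Its level at 6 ppt went from 11.04, 12.00, 12.34 and 12.31 to 12.68, 12.90, 12.31 and 12.67 (0.72 ± 0.49, adjusted p = 0.279), and at 0.4 ppt the change was -0.43 ± 0.49 (adjusted p = 0.708). In the fish used for the selection it fell from 14.71, 14.16, 14.01 and 14.57 at 0 h to 11.02, 10.30 and 12.66 at 42 h at 12 ppt, where the spots of the third fish were left out as outliers. si:dkey-31e10.5, with levels of 10.81, 9.25, 8.29 and 9.48 and then 7.40, 6.80, 7.34 and 8.83 in those fish, changed by 1.24 to 1.43 from 0 to 42 h at the 3 tested salinities, none past the threshold. The immediate early factors junba and IER2 changed by -0.25 to 0.59 over the same interval and were not called.

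slc12a2 was among the 3 of 35 transcripts called lower at 6 ppt, where 10.1% of all rows were called lower. At 6 ppt it fell from 9.90, 8.96, 10.89 and 10.20 to 7.75, 7.10, 8.67 and 7.73, without overlap, a 4.52-fold decrease (-2.18 ± 0.67, adjusted p = 0.0191). At 0.4 ppt it went from 7.55, 7.18, 8.55 and 8.64 to 6.21, 6.13, 6.03 and 7.96 (-1.40 ± 0.67, adjusted p = 0.228), and at 18 ppt from 10.39, 10.12, 7.23 and 7.79 to 8.82, 11.06, 8.47 and 8.18 (0.25 ± 0.67, adjusted p = 0.905). The change at 18 ppt was 2.42 ± 0.95 above that at 6 ppt (adjusted p = 0.195). At 12 ppt, in the selection, its levels were 8.27, 9.34, 10.34 and 10.37 at 0 h and 7.48, 7.27, 7.93 and 8.84 at 42 h. There most of the set was also lower at 42 h, with 11 of the 35 transcripts higher.

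ptprsa, a receptor tyrosine phosphatase, fell with it at 6 ppt, by 1.51 ± 0.30 (adjusted p = 0.0013), from 9.86, 9.52, 10.10 and 9.50 to 8.55, 7.52, 8.65 and 8.24. cul3a, the scaffold of a ubiquitin ligase, fell by 0.98 ± 0.28 (adjusted p = 0.0131). The unnamed isotig02198 had levels of 7.87, 9.21, 10.93 and 8.57 and then 5.42, 8.15, 7.77 and 8.49 (-1.69 ± 0.84, adjusted p = 0.127). Over the 16 group means, slc12a2 correlated with isotig02198 at 0.87 and with ptprsa at 0.80, and with irg1l at -0.56. Within groups, the mean correlation of slc12a2, ptprsa, cul3a and isotig02198 with the other transcripts lay between -0.10 and 0.03, while that of each of the others lay between 0.14 and 0.45. Of the 20 other probes for ion and water transport, 2 were called higher and none lower at 6 ppt, and 4 lower at 18 ppt. The 20 include a further slc12a2 probe.

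Markers of leukocytes, epithelium and ionocytes are given beside these changes, and their part in them was not tested. All come from the study's list, which had been chosen on these fish for effects of salinity. Their levels therefore need not follow cell content. The 4 genes outside the set that had been sought as leukocyte markers (hcls1, mxb, noxa1 and pik3r5) had a median mean log2 level of 8.54 before the experiment. At 0 and 42 h it was 8.81 and 9.12 at 0.4 ppt, 8.47 and 8.60 at 6 ppt, and 8.45 and 8.48 at 18 ppt. For 12 ppt it was 8.38 and 8.57, and for the handling control 8.43 and 8.88. The 4 genes did not move together from 0 to 42 h at 18 ppt. The noxa1 probes rose by 0.98 and 0.89 and mxb by 0.16, while hcls1 changed by -0.40 and pik3r5 by -0.45. The symbol noxa1 is among those that the selection left out. Its probes were higher at 12 than at 2.3 ppt by 1.32 and 1.29 at 0 h, and differed by -0.31 and -0.18 at 42 h. It is thus outside the set by its symbol alone. How far the 4 genes reflect leukocyte content was not tested. Summed over all 6 genes sought as leukocyte markers, members included, the signal ranged from 1658 to 2290 before the experiment, from 2030 to 3720 at 0.4 ppt and 0 h, and from 5696 to 8757 there at 42 h. The 8 epithelium genes, none of them in the set, had a mean log2 level of 8.11 to 8.32 before the experiment and of 8.65 to 9.24 at 0.4 ppt and 0 h, without overlap, and their summed signal was 3409 to 4196 and 5162 to 6793. In 6 ppt their median mean log2 level was 8.06 at 0 h and 8.64 at 42 h, in 0.4 ppt 8.82 and 9.07, and in 18 ppt 8.21 and 8.28. Epithelium genes were thus also higher than before the experiment in the 0.4 ppt fish of 0 h, where 8 members were called. At 12 ppt and 0 h their median level was 7.99 (7.42 to 8.49), against 8.28 before the experiment. The mean of the members in that group was 0.58, the highest at 0 h. The epithelium genes stood at a median of 8.57 at 12 ppt and 42 h. In the handling control, where salinity was not changed, their mean log2 level was 8.27 to 8.99 at 0 h (median 8.79), with a median of 8.89 at 42 h. Summed over the 6 ionocyte genes, which include slc12a2, the signal ranged from 18787 to 32938 at 6 ppt and 0 h and from 19649 to 36176 at 42 h.

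The calls rested on few fish per group. Without replicate 1 of the 18 ppt fish of 42 h, the highest there for ctsl.1 and asns, the count of 5 at 18 ppt became 0, as it did with the slide as a block. It was 1 without replicate 1 or replicate 5 of the 0 h fish, 2 without replicate 2, and 3 without replicate 3 or without replicate 6 of 42 h. At 0.4 ppt the 9 calls became 4 without replicate 1 or replicate 4 of 0 h and 5 without replicate 5 of 42 h. At 6 ppt the 18 calls became 9 without replicate 4 of 0 h, and the calls of slc12a2, il1b and cul3a were among those lost.

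Among the 8 transcripts too dim for the filter, fitted in a model without it, 3 were called between 0 and 42 h, 1 at 0.4 ppt and 2 at 6 ppt. In that model 0.56% of all rows were called higher at 0.4 ppt and 7.55% at 6 ppt. bcl3, a cofactor of NF-kB, rose by 2.31 at 6 ppt (adjusted p = 0.0268), slc38a2, an amino acid transporter, by 1.22 at 6 ppt (adjusted p = 0.0225), and si:dkeyp-72h1.1, named LBH, by 1.61 at 0.4 ppt (adjusted p = 0.0486). tmem176, gpr84, TNIP2, nadka and isotig27507 were not called in any tested comparison.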

How the data were processed

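Gill RNA of 70 individual delta smelt was hybridized to single-color Agilent arrays, 1 fish per array. Per the submitters' processing notes, the authors extracted the deposited scanner intensities with Feature Extraction 11.5.1.1, which includes background subtraction, and worked in Genespring 12.6. The log2 values deposited by the authors as the series' value table served only to choose the transcripts, as a description, and as an alternative.

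The processed intensity was quantile normalized over the arrays and log2 transformed. Of 36818 probes, 14425 reached a signal of 100 on 50% of arrays or more. From these, 2036 outlier spots were left out. Member probes were averaged per transcript, and a limma 3.58.1 model (R 4.3.3) with 16 group means was fitted to 14404 rows (54 residual degrees of freedom), with Benjamini-Hochberg adjustment over all rows and a threshold of 0.05. The pipeline was tested on simulated data. Tables and figures used Python 3.11.15, pandas 2.3.3 and matplotlib 3.10.9. The number of fish limits the precision.

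The transcripts, the gene lists and the comparisons were chosen with earlier results of these data known. Named are the 12 transcripts with the largest early difference, up to 3 called transcripts with the largest change per comparison, and the members of the functional lists. Transcripts outside this rule (alas1 and asb16 among others) were named after their values were seen. Alternatives were other normalizations, filters, blocks and covariates, and leaving out each fish. The normexp correction used the median spot signal, since the files used here have no mean signal column.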

Additional observations from a re-analysis of the deposited data

Results flagged for a closer look

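In 14 named transcripts and in the mean of the 35, 223 sets of values from groups of 4 to 6 fish were examined for a single fish far from the rest of its group, and 8 such values were found. Chance marks about 1 in 20 groups. irg1l stood at 7.83 in replicate 3 of 0.4 ppt at 0 h (others 5.76 to 5.90), at 8.11 in replicate 7 of 18 ppt at 42 h (others 11.25 to 11.31), and at 2.09 in pre-experiment fish A1 (others 4.08 to 4.26). The last was measured on the dimmest array, with a median signal of 12.9. il1b was at 9.63 in replicate 2 of 6 ppt at 18 h (others 6.28 to 6.75). In the handling control at 42 h, fish A2 lay below the other 5 for 4 transcripts. Its levels were 12.05 for ccl19 (others 13.28 to 13.46), 12.56 for sb:cb252 (others 14.05 to 14.68), 11.43 for isotig30094 (others 12.69 to 13.22) and 7.72 for asns (others 9.44 to 10.33). This fish is one of those used for the late threshold of the selection.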

How the results depend on the processing

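No transcript passed between 12 and 2.3 ppt at 18 h, between 18 and 0.4 ppt at 0 h, or at 6 ppt against the pre-experiment fish, in any limma alternative. The count of 1 at 18 ppt against the pre-experiment fish became 0 with normexp correction, with a signal of 100 required on every array and with the slide as a block, 3 with array brightness as a covariate, and 2 with single probes in place of transcripts. The count of 8 at 0.4 ppt against the pre-experiment fish became 2 with the strict signal filter, which leaves 9 transcripts, and 16 of 56 single probes. Between 0 and 42 h, the 5 at 18 ppt became 3 without a filter, 2 with the strict one, 0 with the slide as a block, 3 with scan day and photomultiplier setting as covariates, and 8 with single probes. The 9 at 0.4 ppt became 3 with the strict filter. The 18 at 6 ppt became 7 with it, 8 with array brightness and 29 with single probes.

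Leaving out each fish gave 0 to 5 for 18 ppt against the pre-experiment fish, 5 to 9 for 0.4 ppt, and, between 0 and 42 h, 0 to 6 at 18 ppt, 4 to 11 at 0.4 ppt and 9 to 20 at 6 ppt. The selection took 54 probes without replicate 1 of 12 ppt at 0 h and 96 without replicate 3, in place of 69. Replicate numbers do not pair the fish: deviations of same-numbered fish had a median correlation of 0.0143. With the replicate number as a block, the counts against the pre-experiment fish were 1 at 18 ppt, 8 at 0.4 ppt and 0 at 6 ppt. Between 0 and 42 h they were 4 at 18 ppt, 12 at 0.4 ppt and 13 at 6 ppt, and they were 0 for 12 against 2.3 ppt and for 18 against 0.4 ppt. Without the 3 dimmest arrays, an alternative chosen after seeing the data, the counts between 0 and 42 h were 19 for 6 ppt, 12 for 0.4 ppt and 7 for 18 ppt. Each called transcript and comparison was looked up again in the alternative fits that held it, including those that left out a fish. Over all these refits, which count a result many times, the threshold was lost in 134 and kept in 584, and 0 reversed. The causes of these shifts were not tested.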
